A study of Danio rerio with 5 samples.

Results

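Genes of cartilage matrix were followed in cells sorted from the zebrafish eye. They were col2a1a, col9a1a, col9a1b, col9a2, col9a3, matn1, cnmd, hapln1a and ucmab, together with sox9a, the transcription factor that switches such genes on in cartilage. The 10 genes were chosen by symbol, of 15413 symbols in the files. All 10 were found, hapln1a as 2 features that were summed. Cartilage matrix is built on fibrils of type II collagen, to which type IX collagen, made of 3 different chains, is bound along the surface. Matrilins join these fibrils to the proteoglycans between them, and link proteins bind the proteoglycan aggrecan and hyaluronan together. In the eye, type II and type IX collagen are known from the vitreous and from the scleral cartilage, and Sox9 is also known from glia of the vertebrate retina.

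GFP+ cells were sorted from dissected eyes of Tg[foxc1b:GFP] embryos (genotype AB), in which regulatory sequence of foxc1b, a transcription factor gene of the periocular mesenchyme, drives GFP. Single cell libraries were made from a series of ages, with embryos of 48 hpf (hours post fertilization) first, then of 72, 96, 120 and 144 hpf, and unique molecular identifiers (UMIs) were counted per gene and cell. The study describes its 2 libraries per time point, A and B, as biological replicates, each from pooled embryos. They also came from different batches, and at 48 and 72 hpf from different chemistries. The p-values thus measure the spread between pools, batches and chemistries together. All groups carry the transgene, and they differ by age alone as far as the labels say. In 10 libraries 12234 cells were deposited, with between 788648 and 15621511 UMIs per library. By the tables of cells, the A libraries of 48 and 72 hpf were made with V2 chemistry and the remaining 8 with V3. The tables of the single time points name 7 batches, of which 3 hold libraries of neighbouring time points. The added eGFP sequence had 0 UMIs in every library, and 1260 cells (10.3%) had a UMI of foxc1b. In 144 hpf B, 61 of its 102 cells (59.8%) carry a barcode that is also in 48 hpf B. The 10 genes had only 7 UMIs in that library, and without the shared barcodes the calls among them stayed the same in number, as given beside the tests.

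In the 10 libraries together the 10 genes had 77880 UMIs, or 1349 CPM (UMIs per 1000000 UMIs of the cells concerned). Col2a1a, the chain of type II collagen, held 34499 of them. The type IX chains col9a2 and col9a3 had 12468 and 10435 UMIs, and col9a1b and col9a1a had 2092 and 2002. Reads of these last 2 paralogues could be split between them in counting. Cnmd, for chondromodulin, a membrane glycoprotein that keeps cartilage free of vessels, had 7621 UMIs. Matn1, for the cartilage protein matrilin 1, had 4025, and ucmab, for a Gla-rich protein of cartilage matrix, had 3808. The regulator sox9a had 893 UMIs. Hapln1a, for a link protein of hyaluronan and aggrecan, had 37 UMIs in 34 cells and was too low for any test.

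All 10 genes were at their highest in 72 hpf B. Over all cells of a library, col2a1a had 79.5 and 99.8 CPM at 48 hpf (A and B), 237 and 3172 CPM at 72 hpf, 1199.8 and 1564 CPM at 96 hpf, 1367 and 141 CPM at 120 hpf, and 76.1 and 1.27 CPM at 144 hpf. Replicates were thus far apart at 72 and 120 hpf. Matn1 had no UMI in either library of 48 hpf, and had 18.1 and 809 CPM at 72 hpf, 261 and 52.3 CPM at 96 hpf, 13.9 and 54.7 CPM at 120 hpf, and 1.95 and 0 CPM at 144 hpf. The 568 matn1 UMIs of 96 hpf A came from 5 cells. Cnmd, unlike matn1, was present from the start, with 180.0 and 31.1 CPM at 48 hpf, 291 and 590.1 CPM at 72 hpf, 210.2 and 242 CPM at 96 hpf, 174 and 51.5 CPM at 120 hpf, and 25 and 0 CPM at 144 hpf. In the plot of CPM by library, the replicates of 72 hpf lie farther apart than those of 96 hpf for col2a1a and cnmd.

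The other genes were highest at 72 or 96 hpf as well, by the mean of the replicates. Col9a2 had 141 and 53.2 CPM at 48 hpf, 209.9 and 1025 CPM at 72 hpf, 582 and 443 CPM at 96 hpf, 364 and 85.1 CPM at 120 hpf, and 41.1 and 1.27 CPM at 144 hpf. Col9a3 had 141 and 31.4 CPM at 48 hpf, 360.4 and 748 CPM at 72 hpf, 463 and 368 CPM at 96 hpf, 312 and 54.3 CPM at 120 hpf, and 26.8 and 0 CPM at 144 hpf. Both were thus present at 48 hpf, as was cnmd. Col9a1a ranged over the libraries between 0 and 190.0 CPM and col9a1b between 1.27 and 138 CPM. Ucmab had 23 and 31.4 CPM at 48 hpf, 55.6 and 197 CPM at 72 hpf, 189.5 and 98.2 CPM at 96 hpf, 156 and 38.9 CPM at 120 hpf, and 23.7 and 3.8 CPM at 144 hpf. At 48 hpf, 82 and 69 of its UMIs lay in clusters 10 and 11 of the clustering described below, both like corneal epithelium (CEp1). Cluster 2, like periocular mesenchyme, held 10. Over the 10 libraries, CEp1-like clusters had 19.2 to 133 CPM of ucmab. Their part in its levels by age was not tested. Sox9a had 1.34 and 19.8 CPM at 48 hpf, 1.16 and 51 CPM at 72 hpf, 27.1 and 41.1 CPM at 96 hpf, 22.7 and 10.4 CPM at 120 hpf, and 3.61 and 1.27 CPM at 144 hpf. It was low in library A and higher in library B at both 48 and 72 hpf.

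**Figure D1:**
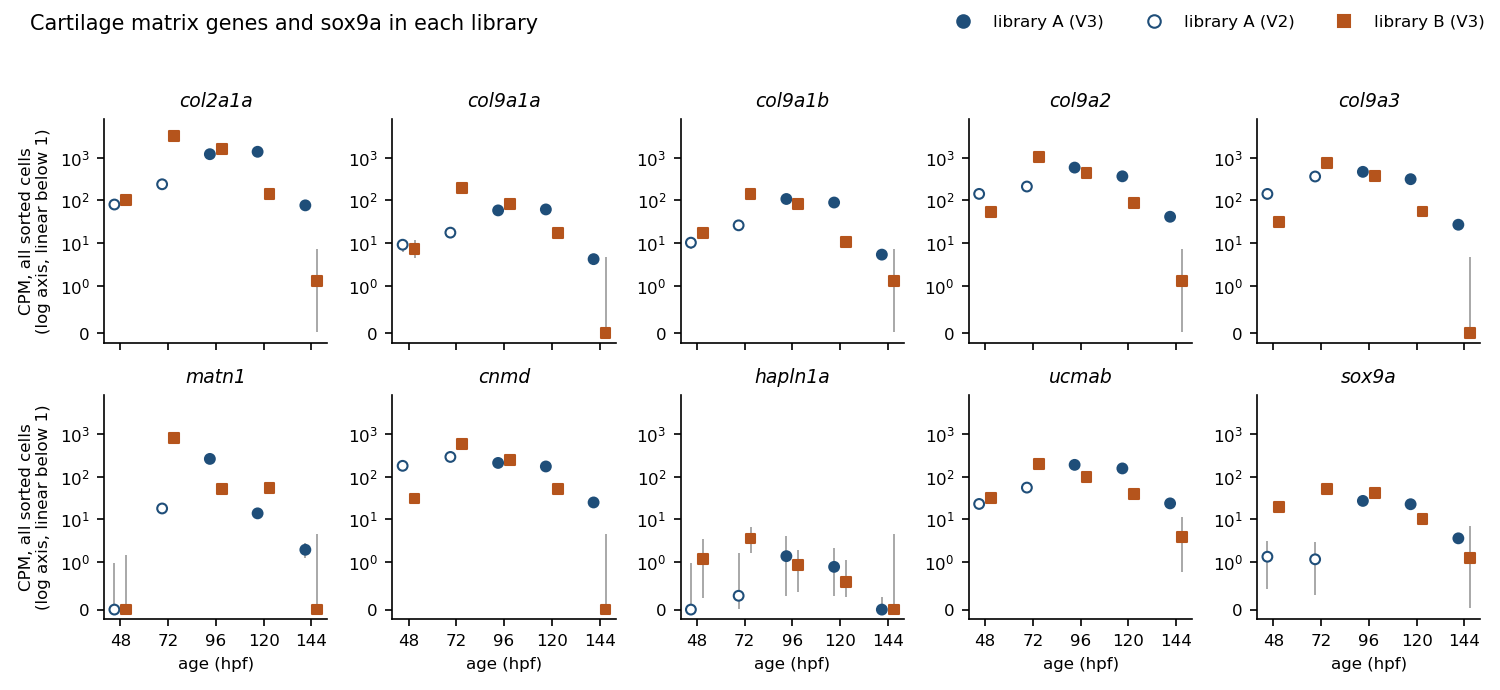
CPM of each of the 10 genes over all sorted cells of a library, by age in hpf, on a log axis that is linear near 0, with 1 point per replicate library (A and B). Every gene is highest in 72 hpf B, col2a1a at 3172 CPM, and matn1 is at 0 in both libraries of 48 hpf.

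Within the 3 batches that hold 2 neighbouring time points, the levels of the later library were mostly lower. In 96 hpf A, against 72 hpf B of the same batch, 10 of 10 genes were lower, with a median log2 difference of -0.91 on the log2(CPM + 1) scale and a range of -1.70 to -0.06. In 120 hpf A, against 96 hpf B, 8 were lower and 2 higher (median -0.26, range -1.84 to 0.67), the higher ones being ucmab and col9a1b. In 144 hpf A, against 120 hpf B, 10 of 10 were lower (median -1.01, range -4.24 to -0.66), with the lowest value for matn1. These are single libraries, and no test was made. The deposited tables differ on the batch of 96 hpf A, and the table of the joined matrix gives it one of its own, so that its place beside 72 hpf B rests on the table of 96 hpf.

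Fewer cells that express a gene and less RNA per cell cannot be told apart in such sums, so cells were also counted. Each cell was thinned to 500 UMIs, which left out 111 of 12234 cells. Cells with a UMI of at least 2 of the 10 genes made up 7.5% in 48 hpf A and 2.62% in B, 12.4% in 72 hpf A and 17.5% in B, 14.4% in 96 hpf A and 13% in B, 6.75% in 120 hpf A and 3.75% in B, and 2.49% in 144 hpf A. In 144 hpf B there was none among 74 cells. The share was thus higher in both libraries of 72 and 96 hpf than in any library of 120 or 144 hpf. The 836 cells are called matrix cells here, and 423 of them (50.6%) lay in 6 clusters high in the genes of cartilage.

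A cluster was called high in cartilage genes where at least 7 of 13 cartilage markers were raised 4-fold or more over the median of other clusters. Of the 13, 9 are among the 10 genes, which makes their high level in these clusters no finding. The 10 genes were left out of the clustering itself. A cluster that met the rule is counted only as such. This takes in cluster 1 of 72 hpf, which its markers named like periocular mesenchyme. The clusters held 18.8% of the cells in 72 hpf A and 13.9% in B, 3.35% in 96 hpf A and 4.61% in B, 5.85% in 120 hpf A and 3.99% in B, 5.11% of 144 hpf A and no cell of 48 hpf or 144 hpf B. They held 71.5% of all UMIs of the 10 genes. With 7 markers, the fewest inside the rule, stood cluster 8 of 144 hpf and cluster 1 of 72 hpf, with 4762 and 11930 CPM of col2a1a. Just outside, with 6 markers, stood a cluster like the corneal stroma and one like mural cells, both of 96 hpf, with 5556 and 6400 CPM of col2a1a. The clusters were not pure. At least 3 of the 10 genes had a UMI in 98.3% of the cells of cluster 11 of 96 hpf and in 34.1% of those of cluster 8 of 144 hpf. Markers of lens were at 0 in all 7 libraries of these clusters, and those of blood and immune cells summed to at most 8 CPM. Those of neurons reached 39 CPM and those of retinal progenitors, over 11 genes, 1051 CPM. Markers of neighbouring mesenchyme were present, with 1358 to 4964 CPM summed over 9 genes of corneal stroma, 1638 to 6711 over 8 genes of the annular ligament (AL2) and 149.9 to 8759 over 6 of mural cells, and their part in the levels of the 10 genes was not tested. The list of corneal epithelium (CEp1) reached the highest sum of the lists of other cells, though not in every library. Its 6 genes summed to 918 and 8019 CPM at 72 hpf (A and B), 25562 and 19910.2 CPM at 96 hpf, 12963 and 3530.1 CPM at 120 hpf and 2104 CPM in 144 hpf A, and were thus highest at 96 hpf, as col2a1a and col9a1b were. One of them is col11a1a, also a cartilage gene, which alone had 24969 and 18358 CPM at 96 hpf, 11698 CPM in 120 hpf A and 499 CPM in 72 hpf A. In 72 hpf A, 120 hpf B and 144 hpf A the AL2 list was higher than CEp1, at 4932, 6711 and 4126 CPM. The part of corneal epithelial cells was not tested.

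Clusters of 2 kinds were found among those high in cartilage genes. In both, col2a1a, the other type IX chains and cnmd were high, but matn1 and col9a1b were high in one kind each. Clusters 15 of 96 hpf (23 cells) and 21 of 120 hpf (24 cells), the ones that the markers name cartilage-like, had 11573 and 4902 CPM of matn1 and 0 UMIs of col9a1b. Much of the level of cluster 15 came from 1 cell, the only one of 96 hpf A, with 553 matn1 UMIs. The 67 cells of 96 hpf B in clusters 11 and 15 together had 324. Clusters 11 of 96 hpf (60 cells) and 13 of 120 hpf (197 cells) had 114 and 112 CPM of matn1, and 6041 and 1237 CPM of col9a1b. As a description of clustered genes, mia, a secreted protein of cartilage, had 2993 and 2488 CPM in the matn1-high pair and no UMI in the other. The same cell of 96 hpf A held 81 mia UMIs. Matn4, for matrilin 4, had 374 and 168 CPM in the matn1-high pair, against 33747 and 9573 CPM in the other. Dcn and lum, for decorin and lumican, proteoglycans of the corneal stroma that space collagen fibrils, had at most 26.7 CPM in the matn1-high pair. In clusters 11 and 13, dcn had 2404 and 927 CPM and lum had 3253 and 892 CPM. Cluster 1 of 72 hpf (227 cells) held both kinds of level, with 3694 CPM of matn1 and 468 CPM of col9a1b. At resolution 2 of the clustering, a cluster of 30 cells at 48 hpf and one of 107 cells at 96 hpf were also named cartilage-like, with 6 and 5 markers. The pairs can be told apart in the heat map of CPM by cluster.

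**Figure D2:**
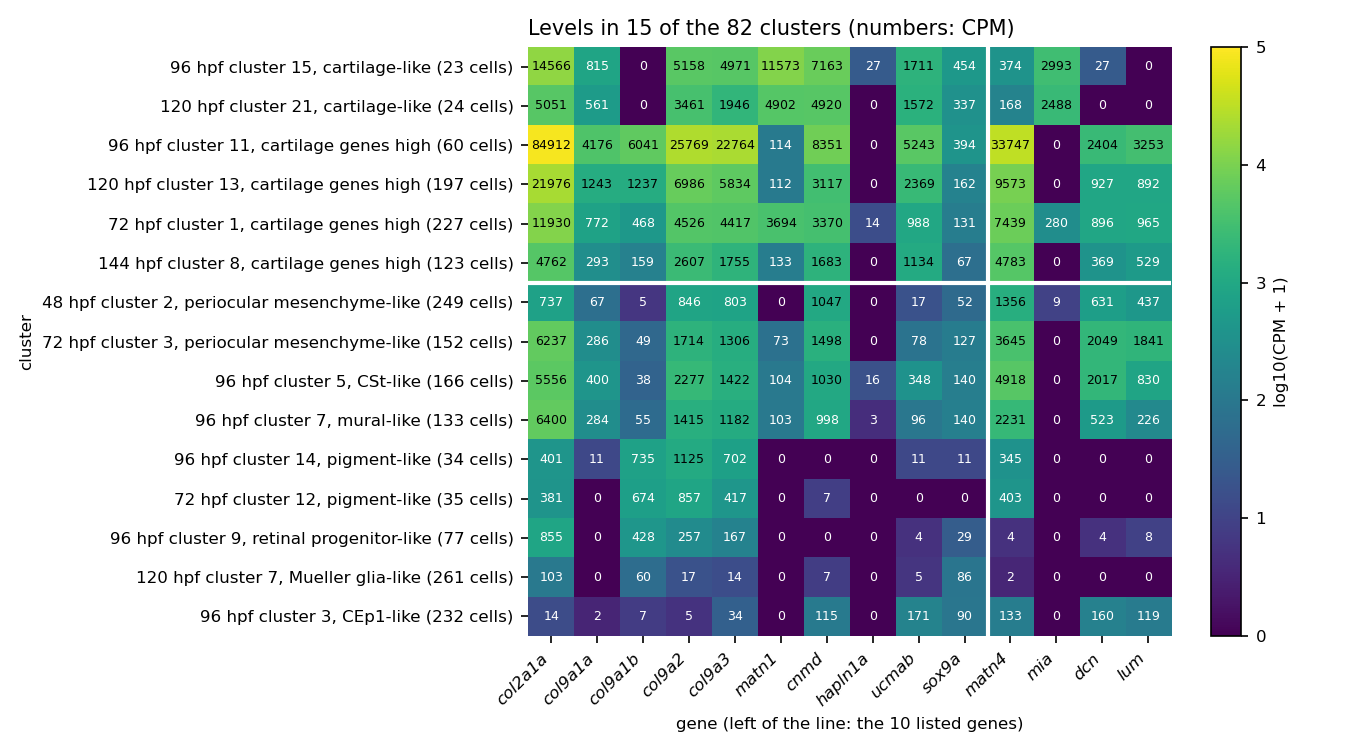
Heat map of CPM on a log scale in 15 of 82 clusters, for the 10 genes and, right of the line, stromal and further cartilage genes. The clusters with matn1 at 11573 and 4902 CPM have no UMI of col9a1b and almost none of dcn and lum. In the cluster at 11573 CPM, 553 matn1 UMIs are from 1 cell.

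The same split was then sought in single cells with no use of clusters, a comparison chosen after the data had been seen. Among thinned cells with at least 2 of the other 9 genes, dcn or lum was found in 19 of 106 cells with a matn1 UMI (17.9%, exact binomial 95% interval 11.2 to 26.6) and in 310 of 726 cells without one (42.7%, 39.1 to 46.4). The cells with matn1 were the deeper ones before thinning, with a median of 2283 UMIs against 1598, and the part of depth was not tested. The share was 27.3% in cells with matn1 and 52.6% in cells without in 72 hpf A, 19.0% and 50.5% in 72 hpf B, and 23.1% and 46.9% in 96 hpf B. It was 18.2% and 47.0% in 120 hpf A, and 10.0% and 39.4% in 120 hpf B. The share was lower in cells with matn1 in all 5 libraries with at least 10 such cells, by 27.8 points on average (SD 3.14, n = 5 libraries). In an exact two-sided permutation test over the 5 libraries p was 0.0625, the smallest that 5 libraries allow. Without thinning, cells with at least 3 of the other 9 genes were taken, in place of 2. In those with at least 3 matn1 UMIs against none, the difference was -30.4 points (SD 19.5), lower in 5 of 5 libraries, with the same p by the exact permutation test. It ranged from -50.6 to -5.4 points. In 72 hpf A, at -5.4 points, 5 of 7 cells with matn1 and 63 of 82 without it had dcn or lum.

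No other of the 10 genes split the matrix cells in this direction in every library. Cells with col9a1b had dcn or lum in 66.7%, against 35.5% of cells without col9a1b, higher in 5 of 5 libraries. For ucmab the shares were 60.0% with the gene and 30.5% without (7 of 7 libraries), for col9a1a 54.3% and 32.4% (7 of 7), for col2a1a 46.7% and 26.2% (8 of 8), and for col9a2 48.6% and 21.6% (8 of 8). For cnmd and col9a3 the share with the gene was the higher one in 8 of 9 libraries each. For sox9a, at 48.3% with and 39.3% without, it was so in 3 of 4. Hapln1a had too few cells in every library.

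**Figure D3:**
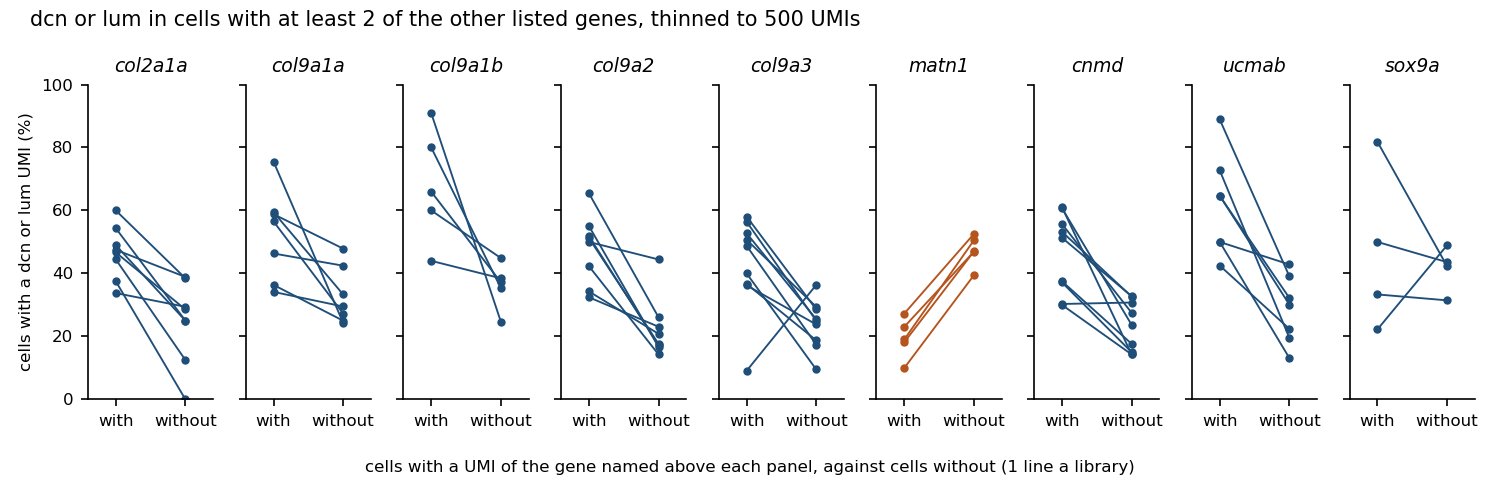
Percent of cells with a UMI of dcn or lum among thinned cells with at least 2 of the other genes, for cells with the named gene and cells without it, 1 point per library with at least 10 cells. For matn1 the cells with the gene lie below those without it in 5 of 5 libraries, 17.9% against 42.7% over all cells.

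Stromal genes and cartilage genes overlapped in single cells overall. Dcn or lum was found in 330 of 836 matrix cells (39.5%, interval 36.1 to 42.9), against 6.70% of 10567 cells with none of the 10 genes. Per library the share among matrix cells lay between 20.8% and 49.4% (mean 36.3%, SD 9.86, n = 9 libraries). As background, retinal and neural cells had it in 0.425%, with a median depth of 2806 UMIs, against 1666 UMIs in the matrix cells. Conversely, 27.6% of 1197 cells with dcn or lum were matrix cells, against 4.63% of the other cells. At 48 hpf no cluster reached 7 markers, and 17 of 60 matrix cells in A and 5 of 24 in B had dcn or lum. Cluster 2 of that age (249 cells, like periocular mesenchyme) had 737 CPM of col2a1a, 1047 of cnmd, 846 of col9a2 and 803 of col9a3. The same cluster had 631 CPM of dcn and 437 of lum, and no UMI of matn1. These levels are sums over the cluster and do not show that the same cells held both. Of the clusters like periocular mesenchyme, only those not high in cartilage genes were taken, at 72 hpf cluster 3 alone. In these, cnmd had 707 and 359.8 CPM at 48 hpf (A and B) and 1794 and 1352 CPM at 72 hpf. The levels of 72 hpf were above those of 48 hpf for cnmd. Col2a1a overlapped between the ages, with 307 and 1179 CPM at 48 hpf and 198 and 9211 CPM at 72 hpf. Cluster 1 of 72 hpf, also named like periocular mesenchyme, was left out here for its cartilage markers. It had 2218 and 21789.6 CPM of col2a1a (A and B), above both libraries of 48 hpf. The ages were not compared with it included. Outside the clusters high in cartilage genes, 14.1% of matrix cells lay in clusters like periocular mesenchyme, 9.81% in those like corneal stroma and 7.66% in those like mural cells.

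Cells with the rarer matrix genes mostly had the more abundant ones. The reverse shares are lower by arithmetic, as the same cells with both genes are set over a larger number. Of 296 thinned cells with col9a1a, 86.8% had col2a1a, 83.1% col9a2, 77.4% col9a3 and 75% cnmd. Of 891 cells with col2a1a, 61.6% had col9a2, 28.8% col9a1a, 26.8% ucmab, 17.3% col9a1b and 11.1% matn1. Of 115 cells with matn1, 86.1% had col2a1a and 83.5% col9a2, but 3.5% had col9a1b. Col9a1b was found in 31.4% of the cells with col9a1a. Of 214 cells with col9a1b, 72.0% had col2a1a, 51.9% cnmd and 1.9% matn1. Of the 219 cells with sox9a, 40.2% had col2a1a, whereas cells with any of the other genes but hapln1a had it in 69.6% or more. Over the 72 ordered pairs of the 9 genes other than hapln1a the median share was 37.0%. A UMI of col2a1a was found in 59.3% of thinned cells of the clusters high in cartilage genes, against 2.54% of retinal and neural cells, at median depths of 1681.5 and 3117 UMIs before thinning. As col2a1a is one of the markers that chose these clusters, this difference follows in part from the rule and is no finding.

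The paralogues col9a1a and col9a1b encode the same chain of type IX collagen and were found in different proportions between kinds of cell. Of their UMIs in the clusters high in cartilage genes other than the matn1-high pair, 1344 of 2708 (49.6%) were from col9a1b. In the matn1-high pair it was 0 of 91, with 3.97% as the upper end of an interval for counting error only. The 0 was seen in each library, with 0 of 9 UMIs in 96 hpf A (1 cell) and 0 of 52 in 96 hpf B (22 cells). It was 0 of 7 in 120 hpf A (5 cells) and 0 of 23 in 120 hpf B (19 cells). The pair was described above by this same lack, so the counts restate it. With no clusters or thinning, cells with at least 3 of the genes other than matn1 were compared. Col9a1b was in 8.43% of 83 such cells with at least 3 matn1 UMIs and in 31.8% of 780 without matn1. The share was lower with matn1 in 4 of 5 libraries, with 22.7% and 42.2% in 96 hpf B. Clusters like corneal stroma (5.91%), annular ligament of type AL2 (10.7%), periocular mesenchyme (11.9%) and mural cells (16.2%) used mostly col9a1a. These leave out cluster 1 of 72 hpf, named like periocular mesenchyme but counted as high in cartilage genes. It had 264 UMIs of col9a1b and 436 of col9a1a. Both genes are among the markers of that rule, so the shares of these clusters depend in part on it. Retinal and neural cells used col9a1b almost alone (304 of 313 UMIs, 97.1%), and so did pigment-like clusters (158 of 159) and Mueller glia-like ones (33 of 34).

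In 1 cluster of 77 retinal progenitor-like cells at 96 hpf all 105 UMIs were from col9a1b, 10 of 10 in 96 hpf A and 95 of 95 in 96 hpf B. These cells had 855 CPM of col2a1a and 257 of col9a2 and no UMI of cnmd, matn1 or col9a1a. The pigment-like clusters of 72 and 96 hpf had 674 and 735 CPM of col9a1b and 857 and 1125 of col9a2, with 381 and 401 CPM of col2a1a. Their 69 cells were 35 of 72 hpf B and 34 of 96 hpf A, with no second replicate at either age. Of the thinned pigment-like cells 44.9% had at least 2 of the 10 genes, against 0.908% of retinal and neural cells. Type II and type IX collagen UMIs thus lay also in cells with no or almost no cnmd. Whether reads of col9a1a and col9a1b were always told apart in counting was not tested.

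**Figure D4:**
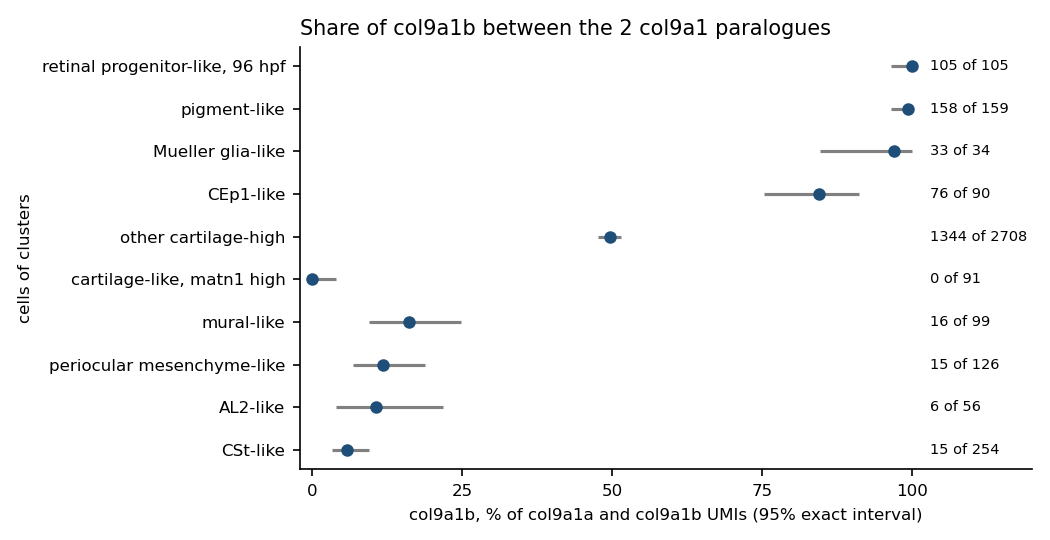
Percent of col9a1a and col9a1b UMIs that are from col9a1b, by kind of cluster, with exact binomial 95% intervals and the number of col9a1b UMIs of all col9a1 UMIs at the right. The matn1-high clusters stand at 0 of 91 UMIs and the retinal progenitor-like cluster of 96 hpf at 105 of 105.

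The order in which the genes appeared was read from the matrix cells themselves, as the percent of cells with at least 2 of the other 9 genes that also had the named one. Col2a1a was found in 52.9% and 71.4% of them at 48 hpf (A and B), and col9a2, col9a3 and cnmd in at least 41.7% in every library shown. All of these genes had UMIs in both libraries of 48 hpf. The cells of 48 hpf were picked largely by these same genes, as the others were rare or absent there. Their being found together at that age thus follows in part from the choice of cells. Ucmab was found in 1.67% of them in 48 hpf A and 8.33% in B, 20.7% in 72 hpf A and 20.9% in B, 32.4% in 96 hpf A and 34.9% in B, 41.1% in 120 hpf A and 40.8% in B, and 36.7% in 144 hpf A. Its replicates were close, and the libraries of successive time points from 48 to 120 hpf did not overlap, although counting intervals of neighbouring ages did. Col9a1b was in 0 of the cells at 48 hpf, in 8.99% in 72 hpf A and 9.26% in B, 39.1% in 96 hpf A and 25.5% in B, 29.9% in 120 hpf A and 11% in B, and 13.6% in 144 hpf A. Matn1 was in 0 at 48 hpf and in 4.35% to 29.7% of cells of the later libraries, with no order among them.

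**Figure D5:**
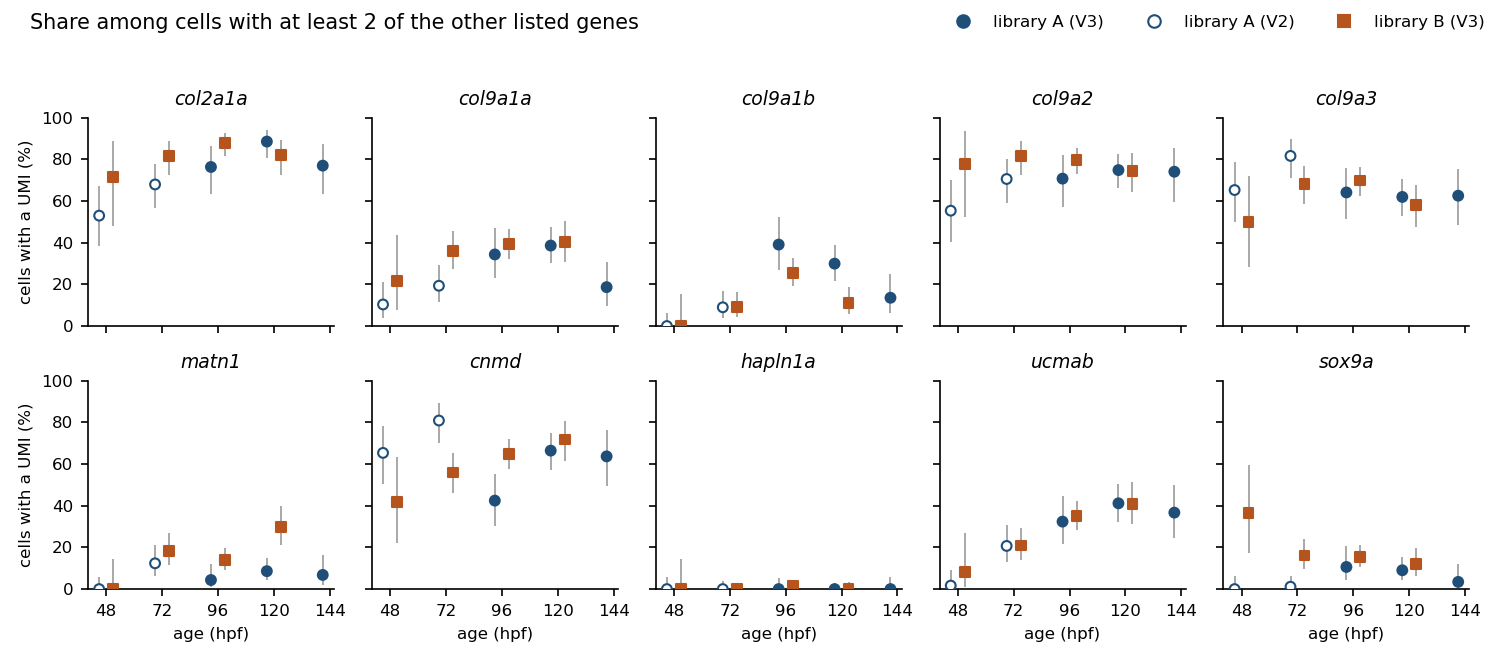
Percent of thinned cells with a UMI of the named gene among cells with at least 2 of the other genes, by age in hpf, 1 point per library, with exact binomial 95% intervals as lines. Ucmab is at 1.67% and 8.33% at 48 hpf and at 41.1% and 40.8% at 120 hpf, whereas col2a1a is at 52.9% or more throughout.

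Within the clusters high in cartilage genes the levels peaked at 96 hpf for 9 of 10 genes by the mean of the replicates. The share of thinned cells with at least 3 of the 10 genes was also highest there, at 98.3% and 95.7% in the clusters of 96 hpf. It was 43.6% in that of 72 hpf, 65.5% and 91.7% in those of 120 hpf and 34.1% in that of 144 hpf. The part of this share in the levels was not tested. Col2a1a had 2218 and 21789.6 CPM at 72 hpf (A and B), 70759 and 51092 CPM at 96 hpf, 40765 and 5912 CPM at 120 hpf and 4762 CPM at 144 hpf A. Col9a1b had 232 and 707 CPM at 72 hpf, 5261 and 3055 CPM at 96 hpf, 2107 and 399.6 CPM at 120 hpf and 159 CPM at 144 hpf A. Matn1 had 214 and 7226 CPM at 72 hpf, 20487 and 2245 CPM at 96 hpf, 366 and 935 CPM at 120 hpf and 133 CPM at 144 hpf A. For all 3 genes the libraries of 96 hpf were above both of 120 hpf. For matn1, 72 hpf B was above 96 hpf B. This order depended on the choice of clusters, and 96 hpf A rests on 16 cells. Its matn1 level came from 553 UMIs in 6.25% of these cells, and the peak of matn1 at 96 hpf rests on them. With 5 markers in place of 7, 8 of 10 genes had their highest mean at 120 hpf, col2a1a with 23338 CPM there and 14138 CPM at 96 hpf. At resolution 0.5 it was 120 hpf for 3 genes (col9a1a, cnmd and ucmab) and 96 hpf for 6.

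UMIs summed per library were tested with edgeR's quasi-likelihood test and Benjamini-Hochberg adjustment over all features tested. Over all sorted cells 0 of 9 genes tested passed a false discovery rate of 0.05 over the 5 time points (edgeR adjusted p between 0.200 and 0.831), where 8 of 9883 features passed (0.0809%). Without the cells of shared barcodes it was also 0, where 21 features passed. At an unadjusted p under 0.05 it was 7 of 9, and 1023 of 9883 features. DESeq2 called 6 of them (col2a1a, col9a1a, col9a1b, col9a2, col9a3 and matn1), where it called 4.28% of features. For 120 and 144 hpf against 48 and 72 hpf, edgeR called none of the 9, while 0.546% of features were higher and 0.435% lower. The log2 fold change was below 0 for 8 of the 9, with a median of -0.84, against 0.02 over all features tested. On libraries simulated for all sorted cells this test found 16% of genes changed 4-fold and 1% of those changed 2-fold.

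In the clusters high in cartilage genes 2 of 9 genes passed over time, where 5.89% of 3732 features did. All of the 9 but sox9a were among the markers that chose these clusters, and so the cells and ages compared. The tests of the 9 here are thus given as a description and support no change over time. The 2 that passed were col9a1b (edgeR adjusted p = 0.0286) and matn1 (edgeR adjusted p = 0.0322). DESeq2, with 1.1% of features called, called col9a1b (adjusted p = 0.00443) and col9a3 (adjusted p = 0.0414) but not matn1 (adjusted p = 0.589). With edgeR neither passed at resolution 0.5, at resolution 2 or with no filter on low counts, with an adjusted p of 0.289, 0.650 and 0.208 for col9a1b and 0.345, 0.138 and 0.258 for matn1. No test of 48 hpf was possible, as it had no such cells. For 120 and 144 hpf against 72 hpf none of the 9 passed, where 3.22% of features were higher and 3.03% lower. Matn1 came nearest, with a log2 fold change of -3.23 (SE 1.04, edgeR adjusted p = 0.0561), but without 72 hpf B it was 0.88, so that its direction rests on that library. Clusters of at least 5 markers also held cells of 48 hpf, where matn1 was at 0 CPM. With them the contrast was thus a different one, against 48 and 72 hpf, and the log2 fold change of matn1 was 3.63. On libraries simulated for the clusters high in cartilage genes the test found 8% of genes changed 4-fold and 0% of those changed 2-fold. Without single libraries the edgeR adjusted p over time ranged from 5.47e-05 to 0.281 for matn1 and from 0.0125 to 0.206 for col9a1b.

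Of 40 other cartilage genes listed, 31 were in the files and 21 could be tested in these clusters. Of these, 5 changed over time and 2 were lower at 120 and 144 hpf than at 72 hpf. Over all features tested there, 5.89% changed over time and 3.03% were lower. Matn4 was the highest at 13032 ± 11485 CPM (SD, n = 7 libraries), before col11a1a, a type XI collagen chain, at 9372 ± 9527 CPM, and col2a1b, the other type II collagen gene, at 5478 ± 4586 CPM. Fgfbp2b and col11a1b had 2234 ± 2608 and 965 ± 774 CPM. None of these 5 passed. The genes that changed were mia, chad, ucmaa, barx1 and col10a1a. Mia is also one of the 13 markers that chose these clusters, so its test is given as a description only. Barx1, a homeobox gene of pharyngeal cartilage in zebrafish, had 411 and 460 CPM at 72 hpf and at most 31 CPM later. Col10a1a, for the collagen of hypertrophic cartilage, had 5078 CPM in 72 hpf B and no UMI in the other 6 libraries. Of 15 stromal genes listed, 10 could be tested and 3 (col1a1a, ogna and postnb) were lower at 120 and 144 hpf, where 3.03% of features were. Col1a1a had a log2 fold change of -3.02 (SE 0.87, edgeR adjusted p = 0.0306), with 3976 and 16522 CPM at 72 hpf (A and B). Lum and dcn, at 1274 ± 914 and 987 ± 466 CPM, did not pass. For both lists the cells of 72 hpf were those of cluster 1 alone, named like periocular mesenchyme. At least 3 of the 10 genes had a UMI in 43.6% of its thinned cells. In the clusters of 120 hpf it was 65.5% and 91.7%, and in that of 144 hpf 34.1%. The ages thus compare unlike mixtures of cells, and the part of this in the differences was not tested.

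Sox9a was also found outside the cells with matrix genes. Of its 893 UMIs, 26.7% were in the clusters high in cartilage genes and 28.7% in those like corneal epithelium. Of the UMIs of all genes in the files, 2.36% were in the former and 29.7% in CEp1-like clusters. Of the UMIs of the 10 genes, 71.5% were in the clusters high in cartilage genes. All of the 10 but sox9a are among the markers that chose these clusters. Their larger share there thus follows in part from the rule. By level sox9a was highest in the clusters high in cartilage genes, with a median of 226 CPM over 7 libraries (10.5 to 450.3). Periocular mesenchyme-like cells were next at 97.5 CPM (0 to 192), before corneal stroma-like cells at 75.7 CPM (31.0 to 169) and Mueller glia-like cells at 71.3 CPM (0 to 145). These ranges overlapped. After thinning, 8.87% of cells in the clusters high in cartilage genes had a UMI of sox9a, against 5.75% in mural-like, 5.54% in Mueller glia-like, 4.76% in corneal stroma-like and 4.13% in periocular mesenchyme-like clusters and 0.42% of retinal and neural cells. Sox9a had 9 UMIs in the 1564 cells of the V2 libraries. At 48 and 72 hpf the V2 library lay 3.15 and 4.59 below the V3 library on the log2 scale, and only 8 of 9883 features (0.0809%) were as low in both. Batch and chemistry cannot be told apart here, and the early levels of sox9a rest on 48 hpf B and 72 hpf B.

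Over 80 clusters of at least 20 cells, the genes with a pattern most like the mean of the 10 genes, by Pearson correlation of log2(CPM + 10), were fgfrl1b (0.905), loxl3b (0.894), col8a2 (0.892), prss35 (0.875), matn4 (0.872), pmp22b (0.870), sema3bl (0.868) and loxl2a (0.865). Clusters of 1 time point share libraries, so these values are descriptions. Pmp22b (0.836), adgra2 (0.835), rarga (0.831), sema3bl (0.829) and loxl2a (0.829) were most like sox9a. Fgfrl1a (0.884), loxl3b (0.882), prss35 (0.868), col8a2 (0.859) and pmp22b (0.859) were most like col2a1a. Among the 10 genes, col9a2 and col9a3 were the closest pair at 0.978, and col9a1b and matn1 had 0.294.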

How the data were processed

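For every time point the authors deposited 1 matrix of raw UMI counts (features by cells), for which Cell Ranger 6.0 and GRCz11 are named. A further matrix joining all time points, subsampled by the authors, was used only as an alternative. Tables of cells, as deposited, name library, batch and chemistry. The genes and lists were chosen with earlier results of these data known. Features were summed to symbols, and all cells were kept, with 175 (1.43%) called doublets and left out in an alternative. Median depth lay between 760 and 3709 UMIs per cell. Cells of each time point were clustered without the 10 genes (100 principal components, 20 neighbours, Leiden resolution 1, leidenalg 0.10.2, igraph 0.11.9, scipy 1.17.1 and numpy 2.4.6 under Python 3.11.15) and named by at least 3 markers, each 4-fold over the median of the other clusters after adding 10 CPM and in at least 10% of cells. Names are rebuilt and can differ from the study's. As only 2 clusters were cartilage-like by name, the tests planned for such cells used all clusters with at least 7 of 13 cartilage markers, in libraries with at least 10 such cells, and 72 hpf alone in place of 48 and 72 hpf. UMI sums per library were tested with edgeR 4.0.16 (R 4.3.3), with DESeq2 1.42.0 as an alternative, after filtering on low counts, and checked on simulated data. The lone library of 144 hpf in these clusters is taken to vary like the others. Binomial intervals are exact at 95% and cover counting error only. Named genes are all 10, from the lists the 5 highest with dcn and lum, and the 8 or 5 most like by correlation. Genes of the lists that passed, mia, and the matn1 and col9a1 comparisons, were added after their values were seen. Figures used matplotlib 3.10.9.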

Additional observations from a re-analysis of the deposited data

How the results depend on the processing

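The count of the 10 genes that changed over time in all sorted cells was 0, and 6 with DESeq2 and 1 with no filter on low counts (0 to 0 when single libraries were left out). In the clusters high in cartilage genes it was 2, and 0 with no filter, 0 at resolution 0.5, 0 at resolution 2 and 1 with the 10 genes kept in the clustering (0 to 3 without single libraries). Those called at 120 and 144 hpf against 72 hpf numbered 0, and 1 without doublets. With 5 markers in place of 7 the clusters also held cells of 48 hpf, and 3 were called against 48 and 72 hpf. The matn1 contrast of -3.23 became 0.88 without 72 hpf B (-4.24 to 0.88 without single libraries). With 5 markers, against 48 and 72 hpf, it was 3.63. The count of genes that first reached 0.5 of their peak at 96 hpf was 9, and 5 at 0.25 of the peak, 2 at resolution 0.5, 1 at resolution 2 and 4 with 5 markers (7 to 9). The share of matrix cells with dcn or lum was 56.7% without thinning and 47.0% at 1000 UMIs (38.3 to 40.6 without single libraries). Replicate letters did not pair the samples (correlations between -0.558 and 0.543 over 10 pairs of time points). With the letter as a block, 0 genes were called in all cells and 2 over time in the clusters. Features called over time in all cells (8) numbered 615 with DESeq2, 238 with no filter, 0 without the V2 libraries and 21 without shared barcodes (1 to 136). Of those at 120 and 144 hpf, the higher (54) numbered 380, 169, 0 and 92, and the lower (43) 213, 98 and 0, in the same order where given, and 34 and 28 with the block. In the clusters, features over time (220) numbered 117 with DESeq2, 86 with no filter and 75 at resolution 2 (69 to 210). The higher (120) numbered 72, 39 and 40, and the lower (113) 63, 58 and 36. With the block they were 78 and 67. With 5 markers, against 48 and 72 hpf, they were 312 and 333. The settings with 5 markers and without shared barcodes were chosen after seeing the data. The cause of these changes was not tested.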
